A study of Mus musculus with 6 samples.

Results

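The 10 genes described here mark resident Kupffer cells, the macrophages that live in the sinusoids of the liver: Clec4f, Timd4, Cd163, Marco, Cd5l, Vsig4, Folr2, Adgre4, Id1 and Id3. They were taken by symbol from a table of 21899 genes, in which each has 1 row, and all 10 were among the 12599 genes with enough counts to be tested. The table holds liver polyA RNA from wild-type (WT) C57BL6J mice fed for 6 weeks a diet deficient in methionine and choline (MCD, 3 libraries) or a diet sufficient in both (MCS, 3 libraries). The MCD diet is a model of metabolic dysfunction-associated steatohepatitis (MASH). The labels give neither the age or sex of the animals nor whether each library came from a separate animal, so p-values measure the spread between these libraries, which may be technical. Every library is whole liver. Fewer Kupffer cells and less RNA per cell therefore cannot be told apart, nor can RNA of Kupffer cells from RNA of other cells that use a gene.

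Kupffer cells are seeded before birth and renew themselves in the sinusoid, where they take up bacteria, complement-coated particles, aged red cells and dead cells. When they are lost, monocytes can enter the emptied places and acquire much of the Kupffer cell programme, with Timd4 among the late genes. Bone morphogenetic proteins (BMPs) from neighbouring sinusoidal cells act through SMAD proteins to switch on Id1 and Id3, and the transcription factors LXR-alpha (Nr1h3) and SPIC belong to the Kupffer cell state.

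Of the 10 genes, Clec4f, Timd4 and Cd163 fell on the MCD diet, Id1 rose and 6 did not pass (edgeR's quasi-likelihood test, Benjamini-Hochberg adjusted p under 0.05). Among all tested genes 24.7% were called, 9.97% lower and 14.8% higher. The median log2 fold change of the 10 genes was 0.07, against 0.01 for all tested genes. CPM is a read count normalised to library size, with library sizes here scaled by TMM, a method that sets the bulk of genes as unchanged. With library size alone 3 members rose (Cd5l, Id1 and Id3) and 2 fell (Timd4 and Cd163), where 40.4% of all genes rose and 2.76% fell and the median of all genes was 0.57. In CPM, 6 of the 10 genes had no overlap between diets, as had 45.3% of all tested genes. Changes below are given on the log2 scale, MCD relative to MCS, with their SE (n = 3 libraries per diet).

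**Figure D1:**
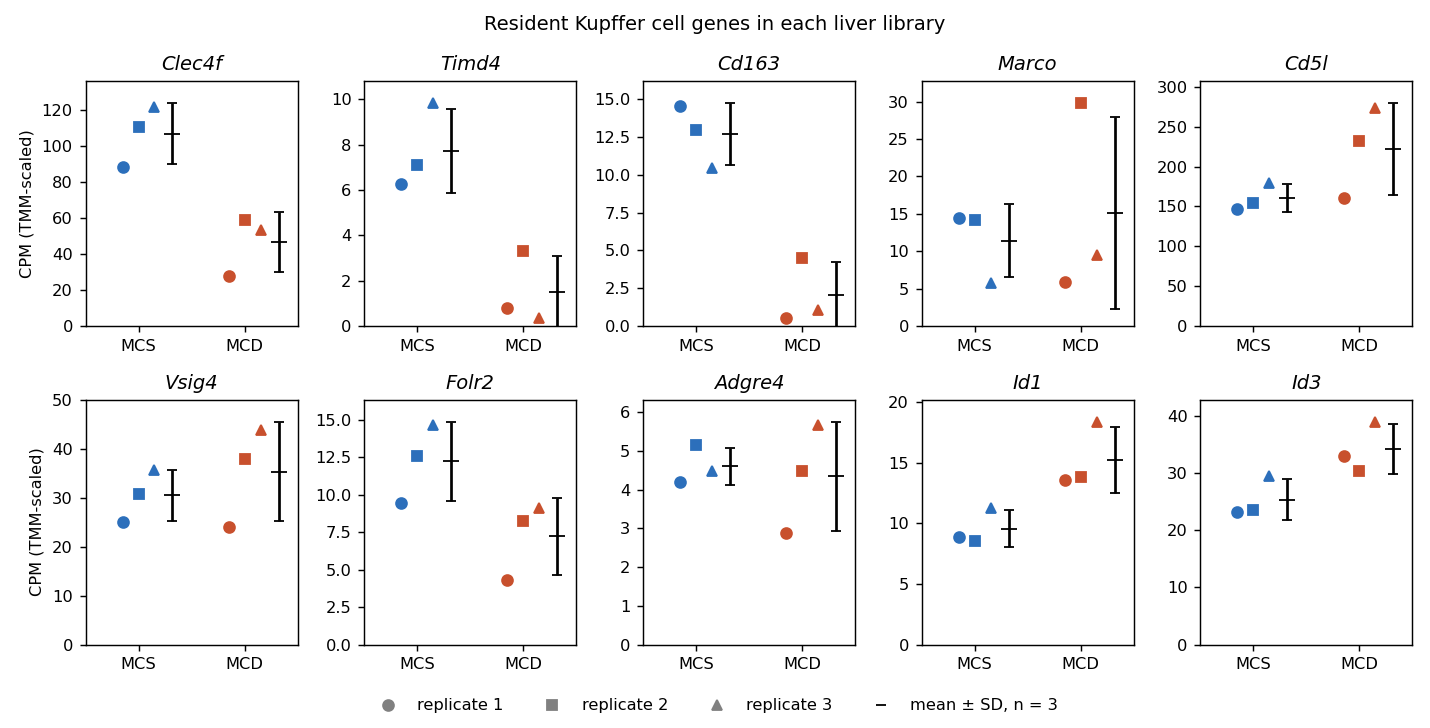
CPM (linear axis from 0) of the 10 genes in each library, with a marker shape for each replicate and the mean ± SD of each diet beside the points; SD bars that would pass below 0 are cut there. Clec4f, Timd4, Cd163 and Folr2 were lower in every MCD library than in any MCS library, and Id1 and Id3 were higher.

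Clec4f encodes a lectin that binds galactose-type sugars and is the most Kupffer-restricted of these receptors in mice. In replicates 1, 2 and 3 its CPM was 88.7, 111 and 122 on MCS and 27.7, 58.8 and 53.3 on MCD, the order kept below. The diets did not overlap, and MCD replicate 1 was the lowest library. The gene fell by 1.20 on the log2 scale, or 2.29-fold (SE 0.27, adjusted p = 0.0148). On TPM (a relative transcript abundance, which corrects for gene length but not for the scaling just described) the diets overlapped, with 48.4, 58.9 and 71.1 on MCS and 24.4, 43.2 and 55.9 on MCD. The call was lost with library size alone (−0.65, adjusted p = 0.0929), on log2(TPM + 1) (adjusted p = 0.115), on dropping MCS replicate 2 (adjusted p = 0.0537) and on dropping replicate 3 of both diets (adjusted p = 0.163).

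Timd4 encodes TIM-4, a phosphatidylserine receptor with which resident macrophages hold dead cells. Its CPM was 6.27, 7.10 and 9.82 on MCS and 0.809, 3.30 and 0.348 on MCD. Every MCD library lay below every MCS library, and MCD replicate 2 stood above the other MCD libraries by more than counting error. MCD replicates 1 and 3 rest on 18 and 10 counts (95% counting intervals of 0.480 to 1.28 and 0.167 to 0.640 CPM), and replicate 2 on 73 counts (2.59 to 4.15 CPM). Timd4 fell by 2.40 ± 0.71 (adjusted p = 0.0438). Without MCD replicate 2 its log2 fold change was −3.79 (adjusted p = 0.000272). The call was lost on dropping MCD replicate 1 or any single MCS library (adjusted p = 0.0895 to 0.143), on dropping replicate 3 of both diets (adjusted p = 0.0639) and with no count filter (adjusted p = 0.0718).

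Cd163 encodes the receptor that clears haemoglobin bound to haptoglobin. It had 14.6, 12.99 and 10.5 CPM on MCS and 0.540, 4.52 and 1.04 CPM on MCD, the widest change among the 10 genes (−2.65 ± 0.69, adjusted p = 0.0315). As with Timd4, MCD replicate 2 was the highest MCD library, with 100 counts (95% counting interval 3.68 to 5.50 CPM) against 12 and 30 counts in MCD replicates 1 and 3. Within the MCD diet the highest library was 8.38 times the lowest for Cd163 and 9.48 times for Timd4, against 1.39 and 1.57 times within the MCS diet. With that library dropped the change in Cd163 was −3.99 (adjusted p = 5.22e-05). The call was lost on dropping replicate 1 of either diet, MCD replicate 3 or MCS replicate 2 (adjusted p = 0.0515 to 0.124), on dropping replicate 3 of both diets (adjusted p = 0.214) and with no count filter (adjusted p = 0.0677).

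Marco, a scavenger receptor with a collagen-like stalk that binds bacteria, showed no diet order. Its CPM was 14.4, 14.1 and 5.74 on MCS and 5.94, 29.8 and 9.51 on MCD (0.40 ± 0.63, adjusted p = 0.676). MCD replicate 2 was again the highest, at 29.8 CPM, so that without it the log2 fold change was −0.59 (adjusted p = 0.305).

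Promoters of the members are given because the gene of PU.1, which binds 1 of the motifs searched, was itself measured in these libraries. RefSeq windows of the 250 bases before the gene start (build GRCm38.p6, not the GRCm39 build that the submitters' processing notes name) were found for 9 of the 10 genes, all but Id1. Clec4f and Timd4 are shown as genes that fell, and Cd5l and Vsig4 as genes that did not pass. Each runs 5′ to 3′ along the gene, and capitals mark GAGGAA, a purine-rich core bound by PU.1, on either strand (TTCCTC is its reverse complement).
Clec4f, chr6:83656117-83656366, minus strand: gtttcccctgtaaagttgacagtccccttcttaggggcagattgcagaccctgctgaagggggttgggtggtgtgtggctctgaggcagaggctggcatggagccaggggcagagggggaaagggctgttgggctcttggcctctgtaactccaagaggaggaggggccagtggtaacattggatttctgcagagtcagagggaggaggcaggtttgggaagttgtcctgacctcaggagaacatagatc
Timd4, chr11:46810549-46810798, plus strand: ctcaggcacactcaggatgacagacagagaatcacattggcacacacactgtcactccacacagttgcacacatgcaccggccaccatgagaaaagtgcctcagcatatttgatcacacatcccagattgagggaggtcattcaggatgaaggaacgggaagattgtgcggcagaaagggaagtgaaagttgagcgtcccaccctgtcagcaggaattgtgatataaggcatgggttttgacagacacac
Cd5l, chr3:87357631-87357880, plus strand: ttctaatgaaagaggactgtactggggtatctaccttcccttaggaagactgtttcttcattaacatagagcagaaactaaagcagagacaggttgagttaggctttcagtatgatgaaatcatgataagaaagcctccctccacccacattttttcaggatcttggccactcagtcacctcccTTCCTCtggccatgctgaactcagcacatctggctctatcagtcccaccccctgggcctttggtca
Vsig4, chrX:96293439-96293688, minus strand: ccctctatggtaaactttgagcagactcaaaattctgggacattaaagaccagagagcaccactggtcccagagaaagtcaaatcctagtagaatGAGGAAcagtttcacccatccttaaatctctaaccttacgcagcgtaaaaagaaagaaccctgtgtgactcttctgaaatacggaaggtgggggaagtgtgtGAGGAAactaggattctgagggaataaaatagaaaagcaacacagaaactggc

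The windows of Clec4f and Timd4 hold no GAGGAA, that of Cd5l holds 1 match and that of Vsig4 holds 2. Cd163, which fell, and Folr2 (both starts) and Adgre4, which did not pass, also hold none. Over the 9 genes, GAGGAA was found for 4 (Marco, Cd5l, Id3 and Vsig4), against 23.3% of 32851 RefSeq windows of the same length. The E-box CANNTG, which basic helix-loop-helix factors bind and which ID proteins keep them from, was found for 4 of the 9 genes (66.2% of all windows). GGCGCC, which SMAD1 and SMAD5 bind, was found for 0 of 9 (9.59%). Both strands were searched. No match of 1 motif overlapped a match of another in these windows.

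Cd5l encodes a secreted scavenger protein, also called AIM, that is a target gene of LXR-alpha and was the most abundant member. It had 97.4, 99.8 and 127 TPM on MCS and 171, 207 and 349 TPM on MCD. In CPM it was 147, 154 and 179.7 on MCS and 160.2, 232 and 274 on MCD, and here MCD replicate 1 overlapped the MCS libraries. The change did not pass with TMM (0.47 ± 0.22, adjusted p = 0.142) and passed with library size alone (1.03, adjusted p = 0.0164).

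Vsig4 encodes the complement receptor CRIg, through which Kupffer cells take C3-coated bacteria from the blood. Its CPM was 25.2, 30.7 and 35.7 on MCS and 24.1, 38.1 and 44.0 on MCD, with overlap between the diets (0.21 ± 0.23, adjusted p = 0.517). In TPM the diets were apart, with at most 35.95 on MCS and at least 36.67 on MCD, and the rise passed on log2(TPM + 1) (0.83, adjusted p = 0.0378).

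Folr2, the folate receptor beta of tissue macrophages, had 9.43, 12.6 and 14.7 CPM on MCS and 4.32, 8.28 and 9.09 CPM on MCD. Its libraries did not overlap in CPM, yet the change did not pass (−0.76 ± 0.30, adjusted p = 0.0917). Adgre4, an adhesion receptor related to F4/80, was the least abundant member by TPM on MCS, with 4.20, 5.14 and 4.47 CPM there and 2.88, 4.48 and 5.68 CPM on MCD (−0.08 ± 0.30, adjusted p = 0.873). Adgre4 changed sign with library size alone, where its log2 fold change was 0.50 (adjusted p = 0.275). Folr2 and Adgre4 each overlap 2 other gene models on the opposite strand, and the labels do not say whether strand was kept. Reads of these neighbours may therefore be among theirs. Whether the overlaps cover exons was not examined.

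Id1 and Id3 encode inhibitors of DNA binding, small proteins that pair with basic helix-loop-helix factors and keep them from DNA. Id1 had 8.86, 8.54 and 11.3 CPM on MCS and 13.6, 13.8 and 18.4 CPM on MCD, a rise of 0.67 ± 0.19 (adjusted p = 0.0351). Id3 had 23.1, 23.5 and 29.5 CPM on MCS and 33.0, 30.4 and 39.0 CPM on MCD, also without overlap, and did not pass (0.43 ± 0.15, adjusted p = 0.0718). Replicate 3 was the highest library of both genes in both diets. Both genes passed without replicate 3 of both diets (log2 fold change 0.65 and 0.44, adjusted p = 0.0187 and 0.0261). That setting was chosen after seeing the data, and 3364 of 12516 genes passed in it. The call of Id1 was lost on dropping replicate 1 of either diet, MCD replicate 3 or MCS replicate 2 (adjusted p = 0.0708 to 0.130) and by limma-voom (adjusted p = 0.0504). Id3 passed on dropping MCD replicate 2 (adjusted p = 0.0497) and with library size alone (0.9956, adjusted p = 0.0134).

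Id1 and Id3 are also used by endothelial cells, and the markers of those cells moved with the replicates. The summed level of 11 sinusoidal endothelial markers was 70.7, 92.7 and 294 TPM on MCS and 87.2, 47.9 and 391 TPM on MCD. All 11 were highest in replicate 3 of each diet, 0 of 11 passed between the diets by edgeR, DESeq2 or limma-voom, and 0 had an unadjusted p under 0.05 in edgeR. Among them the inhibitory Fc receptor Fcgr2b, the lectin Clec4g and the endocytic adaptor Ehd3 had −0.27 ± 0.83, −0.87 ± 0.84 and −0.86 ± 0.64. Without replicate 3 of both diets, 4 of the 11 were called lower on MCD and 0 higher. Of all 12516 genes tested in that setting, 1533 were lower and 1831 higher. For 10 stellate cell markers, of which 3 rose, the sums were 157, 145 and 376 TPM on MCS and 576, 259 and 1180.2 TPM on MCD. Of these 10 markers 9 had a positive log2 fold change (median 1.23), and 6 had an unadjusted p under 0.05 in edgeR. Their most abundant genes did not pass: the proteoglycan Dcn (1.79 ± 0.56, adjusted p = 0.0576), Ecm1 (−0.75 ± 0.33, adjusted p = 0.139) and Colec11 (0.11 ± 0.35, adjusted p = 0.837). Replicate 3 was also the highest library in CPM for 10 of the 10 stellate cell markers on MCD and 8 on MCS. For the 10 members these counts were 6 and 7, and for 8 hepatocyte markers 0 and 4. The share of all tested genes that were highest in replicate 3 was not computed. The part of endothelial and stellate cells in the levels of Id1 and Id3 was not tested.

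**Figure D2:**
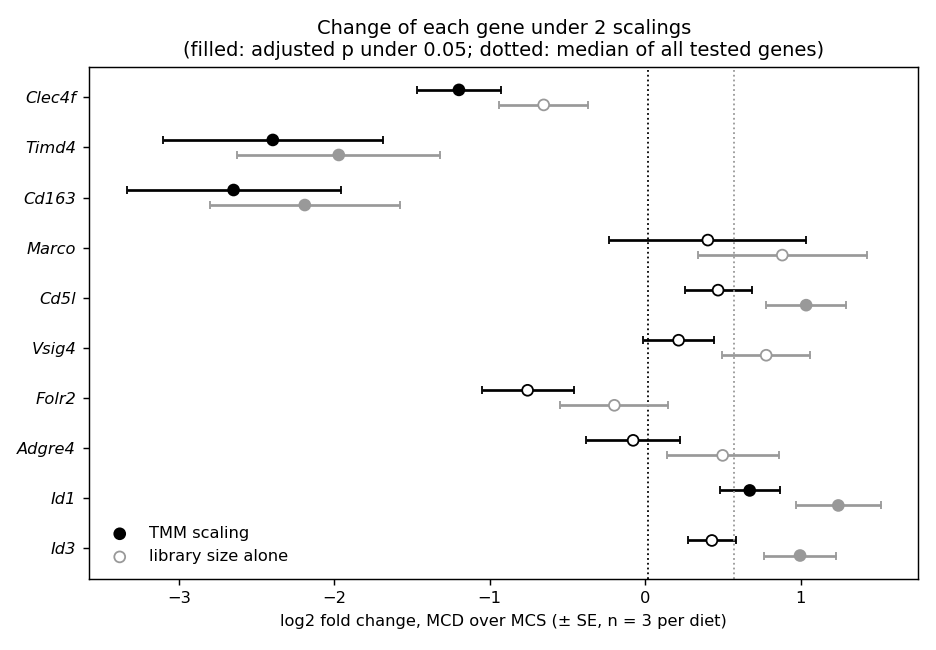
Change on MCD relative to MCS (log2 axis, with SE, n = 3 per diet) of the 10 genes with TMM scaling (black) and with library size alone (grey), filled where the adjusted p was under 0.05. The dotted lines mark the median of all tested genes, 0.01 and 0.57, and every gene lies further right with library size alone, where Timd4, Cd163, Clec4f and Folr2 are still below 0.

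In the authors' deposited table, 6 of the 10 genes had a false discovery rate under 0.05, against 21.8% of all 21899 genes. Of those 21899, 5317 had 0 counts in every library, whereas each member had counts in every library. The shares are therefore not of like sets. Of the 6 members, Id1, Cd5l, Id3 and Vsig4 were higher on MCD (log2 fold change 1.37, 1.16, 1.12 and 0.90 in the authors' deposited table). These are ratios of mean TPM, a scale on which most genes were higher. On log2(TPM + 1) the median of all 12599 tested genes was 0.53, with 5401 called higher and 268 lower by limma. Cd163 and Timd4 were lower in the authors' deposited table (−2.10 and −1.88, FDR = 0.000902 and 0.00748). Clec4f did not pass in the authors' deposited table (−0.53, FDR = 0.146).

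By level per gene length, the order on MCS was Cd5l (108 ± 16.6 TPM, SD, n = 3), Clec4f (59.5 ± 11.3), Vsig4 (29.3 ± 6.17), Id3 (27.3 ± 5.16), Folr2 (16.5 ± 4.14), Id1 (14.1 ± 2.91), Marco (8.24 ± 3.45), Timd4 (4.90 ± 1.41), Cd163 (3.91 ± 0.510) and Adgre4 (1.80 ± 0.162). Neighbours in this order overlapped for Vsig4 and Id3, Folr2 and Id1, Marco and Timd4, and Timd4 and Cd163. On MCD, Cd5l still led (242 ± 93.9 TPM), while Clec4f (41.2 ± 15.8) stood behind Id3 (59.5 ± 18.1) and Vsig4 (54.9 ± 22.2), with libraries that overlapped. Timd4 (1.33 ± 1.26) and Cd163 (0.910 ± 0.839) came last there. The summed level of the 10 genes was 239.9, 259.6 and 322 TPM on MCS and 339.6, 419.5 and 656 TPM on MCD. Cd5l was the largest part of the sum in every library. TPM was higher on MCD for most genes, with a median of 0.53 for all tested genes on log2(TPM + 1). The sum is thus not a measure of the members as a set.

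Ratios within a library do not depend on how libraries are scaled. Relative to Clec4f, the level of Vsig4 in TPM was 0.490, 0.480 and 0.506 on MCS and 1.502, 1.118 and 1.425 on MCD. Vsig4 was thus below Clec4f in every MCS library and above it in every MCD library. The ratio of Cd5l to Clec4f was 2.01, 1.69 and 1.79 on MCS and 7.01, 4.78 and 6.23 on MCD. For Timd4 the ratio to Clec4f went the other way, from 0.0804, 0.0730 and 0.0917 on MCS to 0.0332, 0.0638 and 0.00742 on MCD. Over the 9 other members, 7 were higher relative to Clec4f on MCD and 2 (Timd4 and Cd163) were lower, and no ratio overlapped between the diets. Of all 12598 other tested genes, 73.7% had a ratio to Clec4f without overlap. Among the 12380 with a TPM above 0 in every library, 97% were higher relative to Clec4f (median log2 difference 1.25) and 3.01% lower. A higher ratio to Clec4f was thus the rule for tested genes, and the 9 ratios share Clec4f, so they are not separate results. Each reached p = 0.1 in a two-sided exact permutation test, the smallest that 3 against 3 libraries allow (0.105 adjusted over the 21 ratios computed).

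Set against Adgre1, the gene of F4/80 that resident and recruited macrophages share, every member was lower on MCD, as were 88.5% of the same 12380 genes (median log2 difference −1.24). Clec4f was 4.87, 7.38 and 5.91 times Adgre1 in TPM on MCS and 0.800, 2.03 and 0.729 times on MCD, with no overlap. The log2 difference was −2.50 (two-sided exact permutation p = 0.1, the smallest possible; 0.105 adjusted), and it was −3.81 with Cd68 and −2.43 with Csf1r as the reference. The log2 differences of the other members ran from −4.44 for Cd163 and −4.19 for Timd4 to −0.57 for Id1. Marco overlapped between the diets (−0.9998, exact permutation p = 0.4), and the other 8 did not. Thus 9 of 10 members had no overlap, against 72.2% of all tested genes. MCD replicate 2 had the highest ratio to Adgre1 among the MCD libraries for all 10 genes. Adgre1 itself was lowest in that library (30.5, 21.3 and 76.6 TPM in MCD replicates 1 to 3), which raises every ratio there. The share of all tested genes with this order was not computed, so it cannot be read as particular to the members. All 10 ratios share Adgre1, which itself rose (1.34 ± 0.33, adjusted p = 0.0248).

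**Figure D3:**
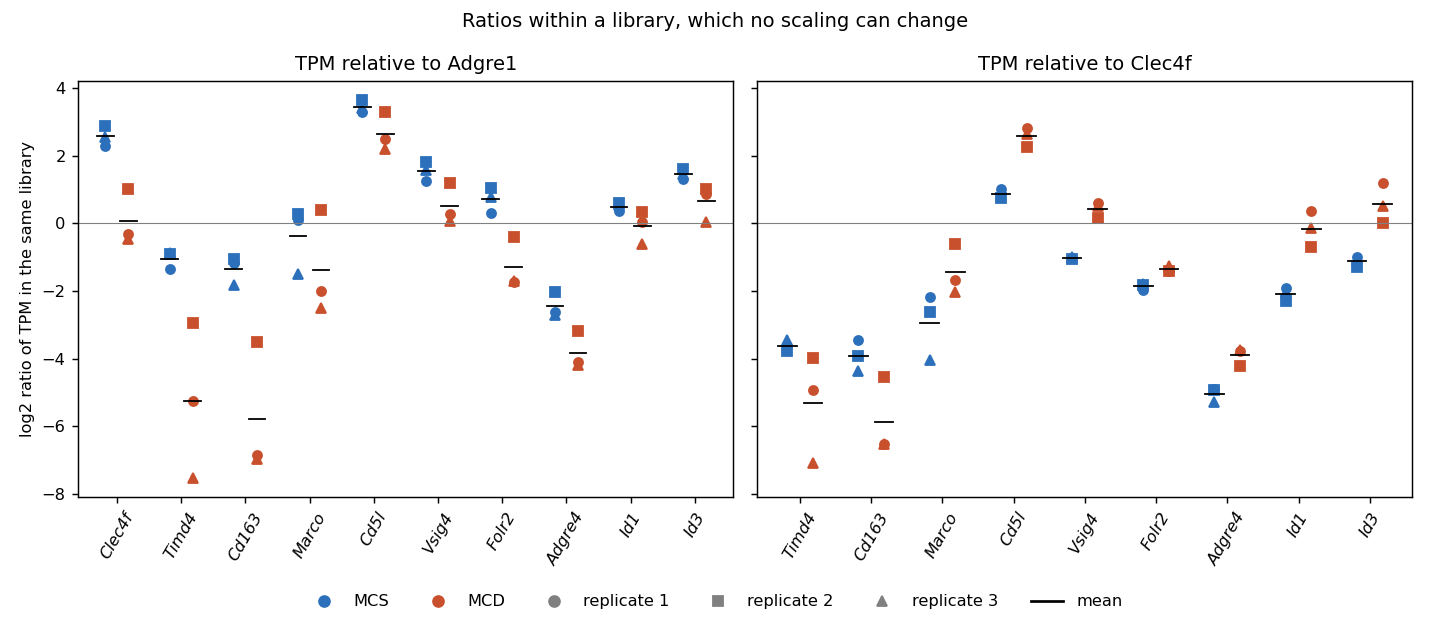
Log2 ratio of TPM for each member to Adgre1 (left) and to Clec4f (right) in the same library, with MCS in blue, MCD in red, a marker for each replicate and a black line at the mean. To the left, the MCD points sit lower for each gene, with overlap for Marco; to the right, Timd4 and Cd163 are lower on MCD and the other 7 genes are higher, as 97% of tested genes are.

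Macrophage genes that resident and recruited cells share rose alongside. Of 13 such genes 12 rose, 0 fell and 1 did not pass, with a median of 2.01. The lysozyme gene Lyz2 rose by 3.46 ± 0.40, the protease gene Ctss by 3.06 ± 0.36 and the signalling adaptor Tyrobp by 2.01 ± 0.26 (adjusted p = 0.00110, 0.00120 and 0.00179). All 14 genes of recruited and lipid-laden macrophages rose (median 3.74), among them Spp1, the gene of osteopontin, by 2.78 ± 0.41, the elastase gene Mmp12 by 7.13 ± 0.53 and Gpnmb, a lysosomal glycoprotein gene, by 7.05 ± 0.49 (adjusted p = 0.00368, 0.000371 and 0.000184). The summed level of these 14 genes was 83.8 to 103 TPM on MCS and 2073, 1141 and 4113 TPM in MCD replicates 1 to 3. MCD replicate 2, the highest MCD library for Timd4, Cd163, Marco and (in CPM) Clec4f, was thus the lowest MCD library for the recruited genes. The other 6 members were highest in MCD replicate 3, where the recruited genes were highest too. Whether these levels are linked was not tested.

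Among 18 other genes of the Kupffer cell programme, 8 rose, 0 fell and 10 did not pass (median 0.88). The complement C1q chains, which are made by tissue macrophages in general, rose together: C1qa from 60.6 ± 6.25 to 123 ± 32.2 CPM (SD, n = 3), C1qb from 62.0 ± 10.3 to 158 ± 49.0 CPM and C1qc from 61.7 ± 7.69 to 136 ± 41.8 CPM (adjusted p = 0.00871, 0.00560 and 0.00837). Cd207, the gene of langerin, had 2.65, 3.40 and 4.74 CPM on MCS and 9.76, 6.88 and 17.9 CPM on MCD (1.68 ± 0.38, adjusted p = 0.0150). Vcam1, an adhesion molecule of Kupffer and endothelial cells, rose by 1.82 ± 0.32 (adjusted p = 0.00701). The other 3 that rose were Fabp7, Axl and Hmox1. The iron exporter Slc40a1 did not pass (0.23 ± 0.16, adjusted p = 0.303).

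Transcription factors of the Kupffer cell state were divided. Of 8 measured, 3 fell, 3 rose and 2 did not pass. Among those that fell, Nr1h3 (LXR-alpha) fell from 103 ± 9.26 to 69.8 ± 13.9 CPM (−0.56 ± 0.17, adjusted p = 0.0434) and Rxra, the partner of LXR, from 647 ± 63.7 to 353 ± 87.9 CPM (−0.87 ± 0.23, adjusted p = 0.0272). Nr1h3 and Rxra are also used by hepatocytes. Spic, which is induced by haem, had 0.863, 1.21 and 1.5997 CPM on MCS and 1.89, 2.13 and 2.37 CPM on MCD and did not pass (0.79 ± 0.40, adjusted p = 0.173). The 3 that rose were Spi1, the gene of PU.1 (1.86 ± 0.25, adjusted p = 0.00172), Irf8 and Zeb2, all broadly myeloid. With library size alone 4 of the 8 rose and 0 fell (40.4% and 2.76% of all tested genes). On dropping replicate 1 of either diet or MCS replicate 2, 0 fell.

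Other genes of the BMP and SMAD pathway, from ligands to targets, mostly did not pass. Of 23 tested (24 listed), 1 rose, the receptor gene Bmpr1a (0.52 ± 0.15, adjusted p = 0.0367), and 0 fell, with 4 at an unadjusted p under 0.05 and a median of 0.10. DESeq2 called 2, and 0 were called on dropping replicate 1 of either diet, MCS replicate 2 or MCD replicate 3. Bmp2, a ligand of endothelial cells, had 3.45, 6.04 and 16.8 CPM on MCS and 4.32, 2.04 and 19.8 CPM on MCD. The ligand genes Bmp6, Gdf2 (BMP9) and Bmp10 had −0.26 ± 0.43, 0.75 ± 0.43 and −0.49 ± 0.51 (adjusted p = 0.694, 0.240 and 0.515). Targets and other genes of the pathway also did not pass: the inhibitor genes Smad6 and Smad7 (0.46 ± 0.35 and −0.27 ± 0.22, adjusted p = 0.361 and 0.400), the hepcidin gene Hamp (−0.29 ± 0.34, adjusted p = 0.561) the BMP co-receptor gene Hjv (0.10 ± 0.19, adjusted p = 0.712) and the related inhibitor Id2 (−0.26 ± 0.20, adjusted p = 0.347). With library size alone 9 of the 23 rose, as did 40.4% of all tested genes.

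Niche signals, which include growth factors, Notch and TGF-beta genes, had 5 of 13 rise and 0 fall (median 0.72), with 0 called on dropping MCS replicate 2. Csf1r, the receptor for the macrophage growth factors CSF1 and IL-34, rose from 77.5 ± 14.9 to 170.4 ± 50.5 CPM (adjusted p = 0.0109), and Tgfb1 had 1.36 ± 0.41 (adjusted p = 0.0518). Abca1, a cholesterol exporter and LXR target, had −0.49 ± 0.17 (adjusted p = 0.0654).

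Of 10 genes that handle haemoglobin, haem and iron, the process that CD163 serves, 3 rose (Hmox1, Blvra and Slc48a1), 1 fell (Lrp1, the receptor for haem bound to haemopexin) and 6 did not pass (median 0.355). The fall of Lrp1 was lost with library size alone, where 7 of the 10 rose and 0 fell. Of all tested genes 40.4% rose and 2.76% fell in that setting. Haptoglobin (Hp), the ligand carrier of CD163, had 16571, 15799 and 3366 CPM on MCS and 4474, 6454 and 2901 CPM on MCD, with MCS replicate 3 inside the MCD range (−1.37 ± 0.58, adjusted p = 0.114). Haemopexin (Hpx) and the ferritin light chain Ftl1 had −1.10 ± 0.56 and 0.34 ± 0.27 (adjusted p = 0.181 and 0.384).

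Of 12 other genes of scavenger receptors, dead-cell receptors and their bridging ligands tested (13 listed), 7 rose, 0 fell and 5 did not pass (median 1.16). Cd36, a fatty acid and lipoprotein receptor, rose from 52.3 ± 12.7 to 324 ± 113 CPM (2.63 ± 0.29, adjusted p = 0.000855). Gas6, the bridging ligand of the dead-cell receptors AXL and MERTK, rose by 0.95 ± 0.17 (adjusted p = 0.00609), and Scarb1, the HDL receptor, had −0.30 ± 0.19 (adjusted p = 0.280).

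**Figure D4:**
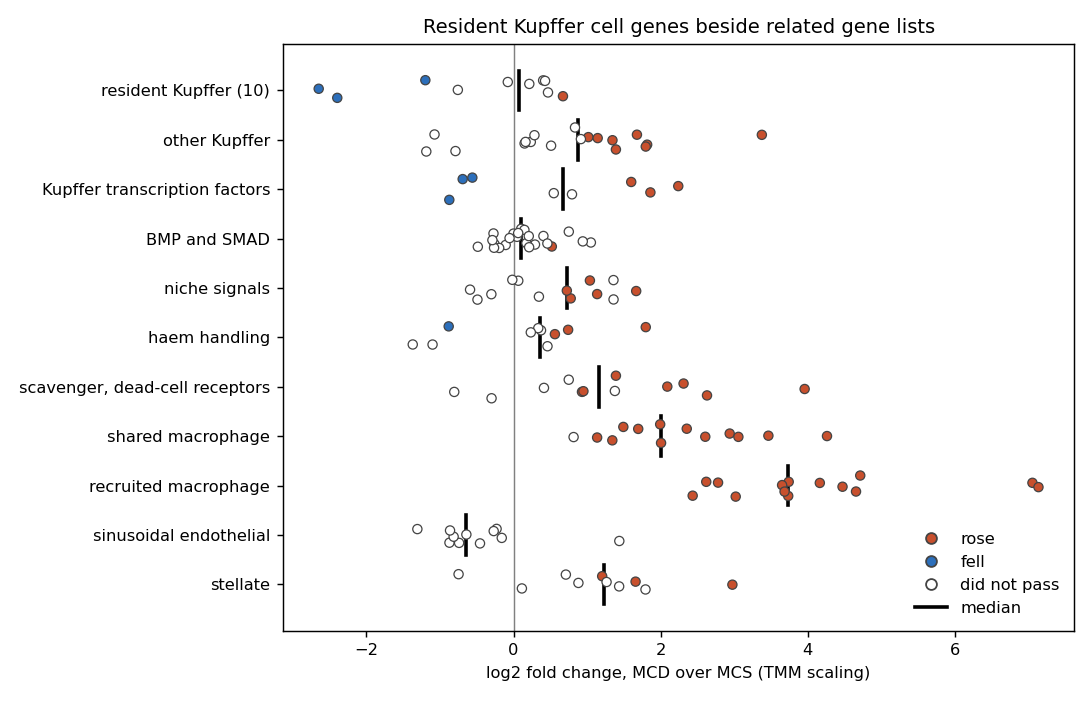
Change on MCD relative to MCS (log2 axis, TMM scaling) for each tested gene of the 10 members and of 10 related lists, coloured red where it rose, blue where it fell and white where it did not pass, with a black line at the median. The medians run from −0.64 for sinusoidal endothelial markers to 3.74 for recruited macrophage genes, with the members at 0.07.

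Total counts were 16615469 to 21322771 per library, where 3 counts correspond to 0.104 to 0.227 CPM, and the lowest count of any member was 10. The second principal component (12.3% of the variance) set replicate 3 of both diets at −39.1 and −25.5 apart from the other libraries, at 9.73 to 32.5. Hepatocyte markers were abundant in every library, with 43222 to 73708 CPM of albumin (Alb), which did not pass (−0.04 ± 0.36, adjusted p = 0.951), and of 8 such markers 1 fell (Fgb) and 7 did not pass, among them transferrin (Trf, −0.25 ± 0.38) and Apoa1 (−0.71 ± 0.28). Of these 8 markers 0 had a positive log2 fold change (median −0.58), and 4 had an unadjusted p under 0.05 in edgeR.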

How the data were processed

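The 6 liver libraries were grouped by the diet in their titles (MCS and MCD, 3 each). The submitters' processing notes name the build GRCm39 and, without roles, RSEM, StringTie 1.3.1, HISAT2 2.1.0, Bowtie2 2.2.8 and fastp 0.18.0. Per the file headers, the deposited table holds a count and a TPM per gene and library, the authors' mean TPM, the log2 ratio of mean TPM deposited by the authors, and the authors' p-value and FDR, whose test no source used here gives. The deposited counts are whole, but 64 cells have a count of 0 beside a TPM above 0, so they were taken as rounded expected counts.

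Counts were tested with edgeR 4.0.16 in R 4.3.3 (filterByExpr with a minimum count of 10, TMM, robust quasi-likelihood fit with diet as its term, Benjamini-Hochberg over 12599 genes). SE was taken from the F statistic (absolute log2 change over the root of F). Counting intervals (95%) are exact Poisson and, like the 3-count floor, cover counting error only. Alternatives were DESeq2 1.42.0, limma 3.58.1 (voom and log2 TPM with a pseudocount of 1 or 0.1), library size alone, no filter, a replicate block and libraries left out. The fits were tested on simulated data.

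The 10 members and the related lists were chosen with earlier results of these data known. Named genes are the members, the tested genes of each list with the highest mean TPM, and genes set by name. Irf8, Zeb2, Spi1, Bmpr1a, Fabp7, Axl, Hmox1, Slc40a1, Blvra, Slc48a1, Lrp1, Fgb and Adgre1, all on the lists, were picked for naming with their values in view. So were all ratios but those of Clec4f to macrophage genes. The same ratios were computed for all tested genes as their background. Csf1r, Axl, Hmox1 and Slc40a1 are each on 2 lists. 1 factor on the lists is not reported by name here. All library pairs differed beyond counting noise (chi-square over its degrees of freedom at least 13.7).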

Additional observations from a re-analysis of the deposited data

How the results depend on the processing

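Of the 10 members, 4 were called with all libraries, 0 at adjusted p under 0.01, 2 without a count filter, 2 without replicate 3 of both diets (Id1 and Id3, a setting chosen after seeing the data), and 0 to 5 with 1 library left out (lowest without MCS replicate 2, highest without MCD replicate 2). By limma on log2(TPM + 1) and on log2(TPM + 0.1), 6 members were called in each, 4 higher and 2 lower. The main fit had 1 higher and 3 lower. Of all 12599 tested genes, 5401 and 5692 were higher and 268 and 282 lower on those 2 scales. Calls over all genes moved too, from 3117 of 12599 to 1058 at adjusted p under 0.01 and 3187 of 16582 without a count filter. They numbered 3364 of 12516 without replicate 3 of both diets. Without MCS replicate 2 they were 1347 of 13108, and without MCD replicate 2 they were 4435 of 13000. Over all settings other than the main one, 108 of 150 member values kept their direction and side of the threshold, 26 no longer passed, 11 newly passed and 5 changed sign. With 1 library left out, Marco ran from −0.59 to 0.78 and Adgre4 from −0.32 to 0.14. The 5 were Adgre4 with library size alone (0.50), on log2(TPM + 0.1) (0.51), on log2(TPM + 1) (0.38) and without MCD replicate 1 (0.14), and Marco without MCD replicate 2 (−0.59). The replicate block called 5 members, with Folr2 added (log2 fold change −0.80, adjusted p = 0.0255). The replicate numbers share no stated source, so the block is given here alone. In their deviations same-numbered libraries correlated at 0.063, 0.147 and 0.246, and other pairs at −0.223 to 0.132. Each MCD library correlated best with the MCS library of its own number. Whether the numbers mark a shared source was not tested. At adjusted p under 0.01, 2 transcription factors, 0 BMP and SMAD, 0 niche, 2 haem handling, 3 scavenger and 0 stellate cell genes were called. With library size alone, on log2(TPM + 1) and on log2(TPM + 0.1), BMP and SMAD calls numbered 9, 9 and 10, niche calls 9, 9 and 9, haem handling calls 7, 7 and 7 and stellate cell calls 7, 7 and 7. Over all 12599 tested genes the same settings called 5443, 5669 and 5974, against 3117 in the main fit. DESeq2 called 2 BMP and SMAD, 8 niche and 6 stellate cell genes. With the block, 3 BMP and SMAD, 7 stellate and 4 sinusoidal endothelial genes were called. Without replicate 3 of both diets, 8 niche, 8 haem handling, 4 sinusoidal endothelial and 1 stellate cell genes were called, and 1 stellate cell gene without a count filter. All 4 sinusoidal endothelial genes called with the block, and all 4 called without replicate 3 of both diets, were lower on MCD. With 1 library left out, calls numbered 2 to 6 for transcription factors, 0 to 2 for BMP and SMAD, 0 to 7 for niche, 2 to 6 for haem handling, 4 to 7 for scavenger and 0 to 7 for stellate cell genes. Each was at its lowest without MCS replicate 2. All but the niche genes also reached that lowest count on dropping another library. The log2 ratio of Clec4f to Adgre1 differed by −2.97 to −2.23 with 1 library left out. The cause of these changes was not tested. Timd4 and Cd163 had 10 to 100 counts in the MCD libraries.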
